A study of Mus musculus with 56 samples.

Results

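The 9 genes described here are *Pomc*, which encodes the common precursor of several pituitary peptide hormones, and 8 genes whose products cut, trim, amidate or escort such precursors (*Pcsk1*, *Pcsk2*, *Cpe*, *Pam*, *Scg5*, *Pcsk1n*, *Furin* and *Cpd*). They were taken by name from the 47069 genes of the count table. They were measured in single cells (SCs) of primary pituitary cultures from untreated, randomly cycling female C57BL/6 mice of 10 to 12 weeks (the labels of the wells give 3 weeks beside the cycling status, without saying what it counts). Pituitaries were pooled in sets of 5, the dissociated cells were cultured for 4 days, resuspended in the stabilizing reagent RNA-Best and passed through a 10 µm filter onto a 5 to 10 µm Fluidigm C1 chip, and each chamber was read with SMART-Seq v4, which copies full-length mRNA. A chamber is called a well here and carries its plate position as its name. No animal or culture was named for any well, so all wells were 1 sample and every difference between wells is a description with no test.

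Neuroendocrine cells make peptide hormones as long inactive precursors. In the secretory granule, prohormone convertases cut a precursor after pairs of basic residues, a carboxypeptidase removes those residues from the new end, and an amidating enzyme turns a terminal glycine into an amide. The anterior pituitary corticotroph stops mainly at ACTH, made by PC1/3 (*Pcsk1*), whereas the melanotroph of the intermediate lobe also has PC2 (*Pcsk2*), which cuts ACTH on to α-MSH, so the balance of both convertases is known as the difference between these *Pomc* cells.

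Of 56 wells, 46 held at least 100000 gene counts and were used, with 111195 to 12563300 gene counts and a median of 1192620. CPM is the count of a gene per 1000000 gene counts of the well, spike-ins left out. The gene with the highest CPM among *Pomc*, *Prl* (prolactin) and *Gh* (growth hormone) was taken as the leader of a well, which sorted them into 5 *Pomc*-led, 37 *Prl*-led and 4 *Gh*-led wells. This only orders the wells, and levels of these 3 hormones between the groups are no result. *Pomc*-led wells were deeper (median 5298580 gene counts, lowest 1314330) than *Prl*-led wells (median 862979), and ERCC spike-ins took 0.496% to 0.866% of their counts, against 0.144% to 66.1% in *Prl*-led wells. Several libraries stood apart. C10 and C11 were nearly alike, with 96.4% of 946 genes within 2-fold of each other. F11, a *Pomc*-led well, held red blood cell markers at a summed 81639 CPM. H2, also *Pomc*-led, held the gonadotropin subunit *Cga* at 41215 CPM and the GnRH receptor *Gnrhr* at 154 CPM. H4 and F6, both *Prl*-led, carried 4 of 5 endothelial markers at 100 CPM or more. Some values are given without F11, without H2 or without H4 and F6. No value is given without C10 or C11, and correlations between members are given with all of these wells included.

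*Pomc* (ENSMUSG00000020660.5, chr12:3954951-3960642 on GRCm38, plus strand, protein coding) carries its processing sites in its coding sequence, which is shown because the convertases act on what it encodes. The GENCODE M21 transcript *Pomc*-201 has 705 coding bases without the stop codon, lying within chr12:3958129-3960465, and 3 of 5 annotated transcripts share them. The 264 bases of codons 122 to 209 are printed, 5′ to 3′. Capitals mark each in-frame run of at least 2 lysine or arginine codons, the kind of site that prohormone convertases recognise.

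Pomc codons 122 to 209: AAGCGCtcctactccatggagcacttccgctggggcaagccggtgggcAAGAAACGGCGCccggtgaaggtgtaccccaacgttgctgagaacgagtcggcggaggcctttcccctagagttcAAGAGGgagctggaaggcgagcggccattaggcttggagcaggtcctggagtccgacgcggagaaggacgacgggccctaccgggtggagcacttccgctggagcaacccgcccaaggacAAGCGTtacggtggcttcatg

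Among all 235 codons there were 7 such runs, 6 of them pairs and 1 a run of 4 codons at codons 138 to 141, and the printed stretch holds the third to the sixth. The 39 codons from 124 to 162, between the third and the fifth run, encode ACTH. The run of 4 codons lies inside that stretch, 14 codons after the third run, and is the site known to be cut by PC2 on the way to α-MSH. The sixth run, at codons 203 and 204, precedes the start of β-endorphin.

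Reads of *Pomc* and its granule enzymes were found widely among the 46 wells, and those of *Furin* and *Cpd* were not. Detected means 1 CPM or more. *Pomc*, the carboxypeptidase *Cpe* (chr8:64592542-64693054, minus strand), the amidating enzyme *Pam* (chr1:97795114-98095646, minus strand) and *Scg5* (chr2:113776362-113829121, minus strand), which encodes the PC2 chaperone 7B2, were detected in 46 of 46 wells (exact Clopper-Pearson 95% interval 92.3% to 100%). Intervals cover counting error only. *Pcsk1* (chr13:75089826-75134861, plus strand) was detected in 42 wells (91.3%, interval 79.2% to 97.6%) and *Pcsk2* (chr2:143546156-143816285, plus strand) in 38 (82.6%, interval 68.6% to 92.2%). *Pcsk1n* (chrX:7919822-7924410, plus strand), which encodes proSAAS, an inhibitor of PC1/3, was detected in 35 wells (76.1%, interval 61.2% to 87.4%). The general convertase *Furin* (chr7:80388585-80405436, minus strand), which acts in the trans-Golgi of most cells, was detected in 20 wells (43.5%, interval 28.9% to 58.9%), and the carboxypeptidase *Cpd* (chr11:76778424-76847018, minus strand) in 14 (30.4%, interval 17.7% to 45.8%). These shares moved with depth. With each well thinned to 100000 gene counts and a gene called at 1 count, *Scg5* was found in 100% of wells, *Cpe* in 97.8%, *Pam* in 89.1%, *Pcsk1* in 80.4%, *Pcsk2* in 69.6%, *Pcsk1n* in 58.7%, *Cpd* in 23.9% and *Furin* in 19.6%. Exons of *Pcsk2* overlap those of the antisense genes *Pcsk2os1* and *Pcsk2os2*, exons of *Pam* those of *B230216N24Rik*, of *Pcsk1n* those of *Eras* and of *Furin* those of *Gm44851*. No source used here gives the strand setting for these libraries, so reads of these pairs could not be told apart. *Pomc* had fractional counts in 17 wells and *Furin* in 23 of 34 wells with a count, as where a read is shared out over several features. Some *Prl*-led wells held like counts at unlike depth. *Pomc* had 1611.5 counts in A3, 1819 in A2, 1874 in C1 and 1923 in A7, at 183945, 229665, 6845390 and 7294070 gene counts. In the same order *Pcsk1* had 7, 4, 12 and 6 counts and *Pcsk2* 8, 3, 18 and 8, while *Cpe* had 32, 45, 2683 and 3418. How much of such counts came from the cell in the well was not tested.

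Levels of different genes were compared per length only. Length was that of all annotated exons together, for *Pcsk2* 7910 bases against 4723 in its longest coding transcript. The order below holds for that length only. By median CPM per kb of exon over the 46 wells the order was *Pomc* (4030), *Scg5* (435), *Cpe* (119), *Pam* (7.11), *Pcsk1* (6.23), *Pcsk1n* (3.52), *Pcsk2* (1.63), *Furin* (0.0728) and *Cpd* (0). The SD of log2(CPM + 1) over wells was 1.80 for *Cpe*, 1.90 for *Scg5*, 1.97 for *Pam*, 2.5 for *Pcsk1*, 2.56 for *Pcsk1n* and 2.74 for *Pcsk2*, so neighbours in this order such as *Pam* and *Pcsk1* lay well within the spread over wells. The granule proteins *Scg5* and *Cpe* were thus present at high level in almost every well, and both convertases were scarcer and more variable. In H4, the well with the most endothelial marker counts (8855 CPM), *Cpe* was 1.24 CPM, *Scg5* 4.96 CPM and *Pcsk2* 0, the lowest values of *Cpe* and *Scg5* in any well, and *Pomc* was 27.0 CPM. *Pam* was 284 CPM in the same well.

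**Figure D1:**
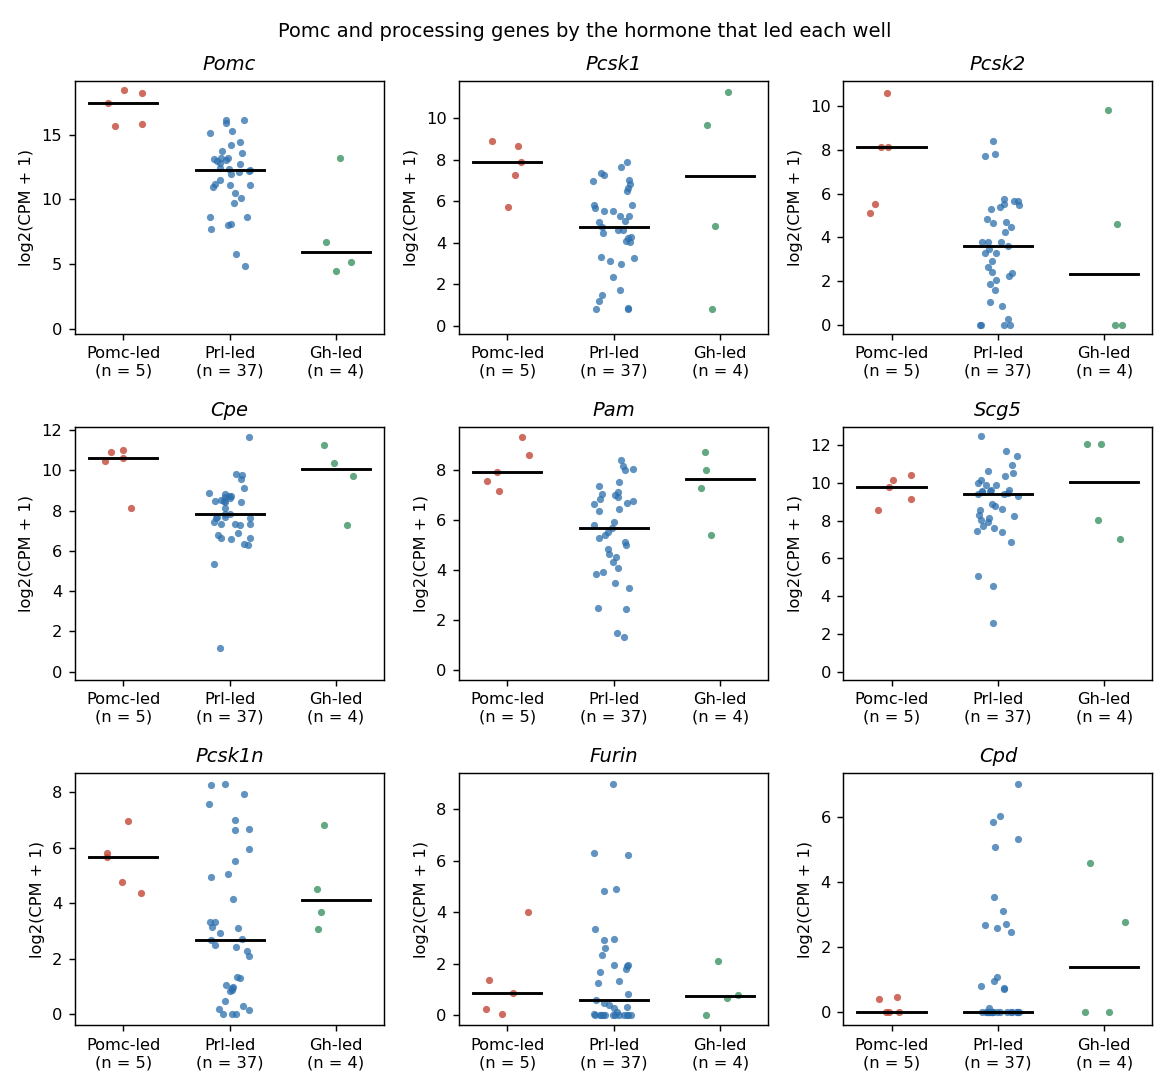
Level of each of the 9 genes, as log2(CPM + 1), in the 46 wells by leading hormone. Points are wells and black lines are medians. For *Pcsk1*, *Pcsk2*, *Cpe*, *Pam* and *Pcsk1n* all 5 *Pomc*-led wells lie above the median of the 37 *Prl*-led wells, and the panel for *Pomc* only shows how wells were sorted.

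The first comparison set convertases and partners in *Pomc*-led wells against *Prl*-led wells. *Pcsk1*, *Pcsk2*, *Cpe*, *Pam* and *Pcsk1n* had higher medians in *Pomc*-led wells, while *Scg5* and *Furin* were close and *Cpd* was at 0 in most wells of both groups. Among genes with a mean of at least 10 CPM, 7 of the 8 processing genes passed (all but *Cpd*), and 5 of these 7 had medians higher by at least 1 on the log2 scale and 0 were lower, where 32.4% of all 7959 genes were higher and 17.7% lower by that much. All 5 *Pomc*-led wells lay above the *Prl*-led median for the same 5 genes, against 8.19% of all genes. The median difference was 2.81 over the 7 genes and 0.11 over all 7959.

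*Pcsk1* was 51.7 CPM in E8, 153 in D10, 235 in H2, 397 in B2 and 473 in F11, and in *Prl*-led wells it ran from 0.720 to 237 with a median of 26.2. The medians of log2(CPM + 1) differed by 3.12 (SD over wells 1.27 and 2.06), and 2 *Pomc*-led wells exceeded every *Prl*-led well. *Pcsk2* was 33.2 CPM in B2, 44.9 in D10, 276 in H2, 283 in F11 and 1568 in E8, against 0 to 343 with a median of 11.4. The difference was 4.48 (SD 2.25 and 2.25), and E8 alone exceeded every *Prl*-led well. The *Pcsk2* difference was 3.19 without E8, 3.19 without F11 and 3.21 without H2, so its size rested on these wells while its direction did not.

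Downstream of the convertases, *Cpe* was 276 CPM in E8, 1420 in F11, 1571 in B2, 1917 in D10 and 2045 in H2, against a *Prl*-led median of 224 (range 1.24 to 3175). The difference was 2.81 (SD 1.20 and 1.64), and the value in E8 stood far below the other four. *Pam* was 144 CPM in B2, 188 in E8, 241 in H2, 392 in F11 and 647 in D10, against 49.8 (range 1.5 to 343), a difference of 2.25 (SD 0.86 and 1.87) with 2 wells above every *Prl*-led well. *Pcsk1n* was 19.8 CPM in E8, 26.4 in D10, 50.4 in H2, 54.8 in F11 and 124 in B2, against 5.44 (range 0 to 314). Its difference was 3.00 (SD 1.01 and 2.65), but 5 *Prl*-led wells exceeded all *Pomc*-led wells.

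The remaining members overlapped widely. *Scg5* was 380 CPM in E8, 556 in D10, 866 in F11, 1139 in B2 and 1345 in H2, against 679 (range 4.96 to 5622), a difference of 0.35 (SD 0.75 and 1.93), and 3 of 5 wells were above the *Prl*-led median. *Furin* reached 14.8 CPM in E8 and lay between 0.0179 and 1.58 CPM in the other *Pomc*-led wells, against 0.507 (range 0 to 499, the highest in B3). *Cpd* held 3 counts in all over the 5 *Pomc*-led wells and was detected in 0 of 5 (exact upper limit 52.2%). It was detected in 12 of 37 *Prl*-led wells (32.4%, interval 18.0% to 49.8%).

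Depth and scale differed between these groups, and their part in the differences was checked by matching. Against the 15 *Prl*-led wells with at least as many gene counts as the shallowest *Pomc*-led well, the differences were 4.90 for *Pcsk1*, 6.07 for *Pcsk2*, 2.00 for *Cpe*, 1.54 for *Pam* and 4.81 for *Pcsk1n*. All 5 *Pomc*-led wells were then above the *Prl*-led median for *Pcsk1*, *Pcsk2*, *Pam* and *Pcsk1n*, where 6.92% of all genes had every well above, and 4 of 5 were above for *Cpe*. Hormone transcripts took 5.39% to 36.5% of gene counts in *Pomc*-led wells and 1.88% to 81.0% in *Prl*-led wells, which lowers the CPM of other genes. With hormone genes left out of the scaling the median of all genes moved from 0.11 to 0, and the 5 differences were lower, at 2.55 for *Pcsk1*, 3.91 for *Pcsk2*, 2.34 for *Cpe*, 1.42 for *Pam* and 2.46 for *Pcsk1n*. Within plate columns 4 to 6 and 10 to 12, where 2 *Pomc*-led wells were found, the *Pcsk1n* difference was only 0.72. Corticotroph markers (*Tbx19*, *Crhr1*, *Avpr1b*, *Neurod1*) summed to 14.5 to 1601 CPM in *Pomc*-led wells and 0 to 90.4 CPM in *Prl*-led wells, with *Avpr1b* at 0 in the former. Lactotroph markers summed to 1218 to 40739 CPM and 14381 to 776631 CPM, gonadotroph markers to 0 to 41747 and 0.212 to 122456 CPM, and red blood cell markers to 0.189 to 81639 and 0.194 to 4475 CPM. Melanotroph markers (*Pax7*, *Oacyl*, *Opn3*, *Tbx19*) summed to 0 to 1291 and 0 to 261 CPM, somatotroph markers to 540 to 4618 and 316 to 202394, thyrotroph markers to 0 to 41265 and 0.212 to 57544, folliculostellate or stem cell markers to 0 to 52.3 and 0 to 188, endothelial markers to 0 to 44.7 and 0 to 8855, macrophage markers to 0 to 1.65 and 0 to 177, and fibroblast or pericyte markers to 0 to 0.660 and 0 to 512 CPM. The part of these other transcripts in the differences was not tested beyond leaving out F11 or H2, one at a time. In each of these runs 5 genes remained higher.

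*Pomc*-rich wells were not alike, and markers of both *Pomc* cell types occurred among them. E8, with the most *Pomc* (356901 CPM), had the melanotroph markers *Oacyl* (612 CPM) and *Pax7*, the factor that specifies melanotrophs (25.1 CPM), had no count of *Crhr1* or *Neurod1*, and combined the highest *Pcsk2* of all wells with the lowest *Pcsk1* of the *Pomc*-led wells. D7, which was *Prl*-led but held 70823 CPM of *Pomc*, was the other well with *Pax7* (37.1 CPM) and *Oacyl* (115 CPM) among the 10 richest in *Pomc*. Its *Pcsk2* (343 CPM) was the highest of the *Prl*-led wells, beside 165 CPM of *Pcsk1*. D7 also held *Pou1f1*, a factor of the *Prl* and *Gh* lineages, at 306 CPM. These markers did not all go together. *Opn3*, which stood on the melanotroph list too, was 0.761 CPM in E8 and 18.5 CPM in D7, and was detected in 0 of 5 *Pomc*-led and 24 of 37 *Prl*-led wells. *Oacyl* was detected in 13 wells, 10 of them *Prl*-led. *Pax7* was detected in 1 further well, B3, which was *Prl*-led with 4579 CPM of *Pomc* and held 4.47 CPM of *Pax7*, 2.23 CPM of *Oacyl*, 31.3 CPM of *Pcsk1* and 24.6 CPM of *Pcsk2*.

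In 3 of the remaining *Pomc*-led wells the CRH receptor *Crhr1*, a mark of corticotrophs, was present, with 313 CPM in B2, 145 CPM in D10 and 49.4 CPM in H2. *Tbx19*, a factor shared by both *Pomc* cell types, was 1289 CPM in B2 and 777 CPM in F11, was 14.5 CPM in E8, and stood at 0 in D10 and 0.398 CPM in H2. These 4 wells had 153 to 473 CPM of *Pcsk1* and at least 33.2 CPM of *Pcsk2*, and *Pax7* was at 0 in all of them. Their *Cpe* was 1420 to 2045 CPM, against 276 in E8 and 224 in D7. The corticotroph list did not all go together either. *Crhr1* was at 0 in F11. *Neurod1* was 77.1 CPM in F11, 34.6 in D10, 21.3 in H2 and 0 in B2, and was highest in F4, a *Gh*-led well (189 CPM). *Crhr1* was also detected in 7 *Prl*-led wells and *Tbx19* in 11.

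Among *Prl*-led wells rich in *Pomc*, convertases varied further. E1 (60788 CPM of *Pomc*) held 237 CPM of *Pcsk1* and 0.220 CPM of *Pcsk2*, with *Neurod1* at 46.7 CPM and *Tbx19* at 0. G10 (35848 CPM of *Pomc*) held the reverse, 0.720 CPM of *Pcsk1* and 226 CPM of *Pcsk2*, with *Tbx19* at 48.0 CPM and the highest *Cpd* of all wells (128 CPM). A10 (73004 CPM of *Pomc*) had 15.7 CPM of *Pcsk1* and no *Pcsk2* count, while *Furin* stood at 78.4 CPM, but at its 127487 gene counts a single count was already 7.84 CPM.

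**Figure D2:**
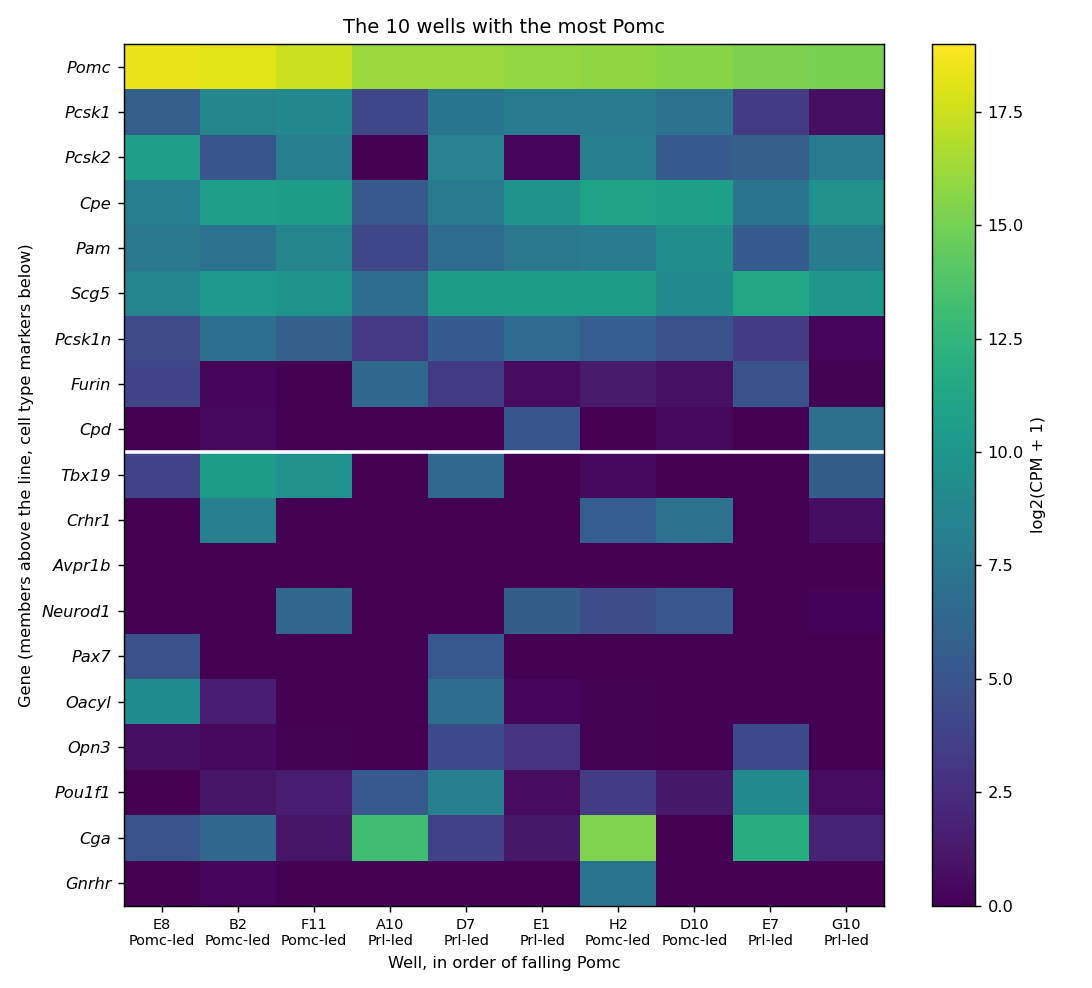
Levels as log2(CPM + 1) of the 9 genes (above the white line) and of cell type markers (below) in the 10 wells with the most *Pomc*, in falling order from E8. *Pax7* and *Oacyl* are seen together in E8 and D7, *Crhr1* in B2, H2 and D10, and *Pcsk2* is near 0 in A10 and E1.

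Both convertases at 10 CPM or more were found together in 22 of 46 wells (47.8%, interval 32.9% to 63.1%), *Pcsk1* alone in 12, *Pcsk2* alone in 5 and neither in 7. In the 14 wells with at least 10000 CPM of *Pomc*, 10 held both (71.4%, interval 41.9% to 91.6%), 2 only *Pcsk1*, 2 only *Pcsk2* and 0 neither. In the 21 wells with 1000 to 10000 CPM of *Pomc*, 9 held both (42.9%, interval 21.8% to 66.0%). In the 11 wells with less *Pomc*, 3 held both (27.3%, interval 6.02% to 61.0%). These 11 wells were the deepest of the 3 classes (median 5758600 gene counts, against 1088650 and 572863). The part of depth in these shares was not tested. The limits of these classes were chosen after the values had been seen.

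The *Pcsk1* to *Pcsk2* balance was taken in each of the 40 wells with at least 10 counts over both genes, as the log2 ratio of counts per kb of exon with 0.5 counts added to each. *Pcsk1* was higher in 32 wells and *Pcsk2* in 8. The median ratio was 1.33 and the range ran from -7.72 in G10 to 13.67 in H11. An equal level per kb corresponds to *Pcsk1* holding 41.5% of both genes' counts, and the 95% interval of that share lay above it in 21 wells and below it in 4 (G10, F6, E8 and D7). The other 15 wells could not be told from equal at their depth. A ratio over 4-fold toward *Pcsk1* was seen in 15 wells and toward *Pcsk2* in 3.

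Among *Pomc*-led wells the balance ran from -4.42 to 4.07. It was -4.42 in E8 (68 counts of *Pcsk1* and 2061 of *Pcsk2*, share 3.19%, interval 2.49% to 4.03%). It was 0.27 in H2 (46.0%, interval 44.8% to 47.2%), 1.24 in F11 (62.6%, interval 61.5% to 63.7%), 2.27 in D10 (77.4%, interval 73.8% to 80.7%) and 4.07 in B2 (92.3%, interval 91.1% to 93.3%). The intervals of these 5 wells do not overlap, so their differences exceeded counting error, which leaves amplification and capture uncovered. In D7 the ratio was -0.56 (share 32.4%, interval 28.1% to 37.0%). E8 and D7, the wells with *Pax7* at 10 CPM or more, thus lay on the *Pcsk2* side, while B3, the third well with *Pax7* detected, had a ratio of 0.82 with an interval that held the equal share. G10 and F6 lay there too with *Pax7* and *Oacyl* at 0. Of the other genes on the melanotroph list, G10 held *Tbx19* at 48.0 CPM and *Opn3* at 0. F6 held *Opn3* at 138 CPM, the highest of all wells, and *Tbx19* at 0.240 CPM. F6 also held 53.1 CPM of *Pomc* and endothelial markers.

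The median balance was 1.24 in *Pomc*-led wells (n = 5, SD over wells 3.18), 1.11 in *Prl*-led wells (n = 32, SD 3.54) and 1.92 in *Gh*-led wells (n = 3, SD 7.18), so the groups differed by far less than the wells within them. The balance also differed between both sets of plate columns, which were split because an earlier result of these data had them differ in depth. In columns 1 to 3 and 7 to 9 the median was 0.55 (n = 26, SD 2.36) and in columns 4 to 6 and 10 to 12 it was 3.50 (n = 14, SD 5.49). The share of wells with more *Pcsk1* depended on the length used for *Pcsk2*. All annotated exons together make 5604 bases for *Pcsk1* and 7910 for *Pcsk2*, but the longest coding transcripts have 5040 and 4723 bases. With the latter *Pcsk1* was higher in 25 of 40 wells, the median ratio was 0.75, and the interval lay above equal in 19 wells and below it in 7, H2 being among the latter.

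**Figure D3:**
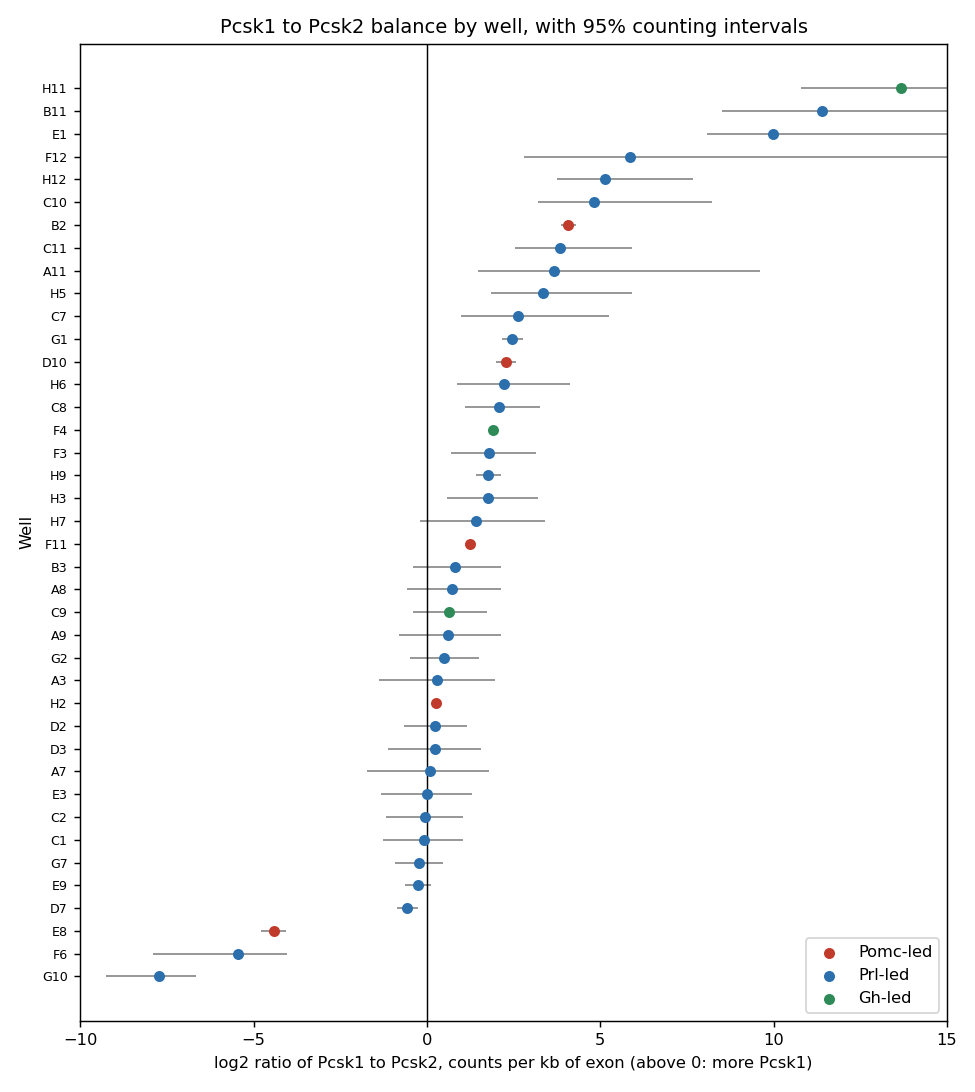
Balance of *Pcsk1* to *Pcsk2* in the 40 wells with at least 10 counts over both genes, sorted. Points are log2 ratios of counts per kb of exon, grey lines are exact 95% counting intervals cut at the axis limits, and colours give the leading hormone. The *Pomc*-led wells run from -4.42 in E8 to 4.07 in B2.

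*Gh*-led wells were few and unlike each other, and their medians say little about a group. *Pcsk1* was 0.710 CPM in B12, 26.5 in C9, 804 in H11 and 2462 in F4, the last being the highest of all 46 wells. *Pcsk2* was 0 in B12 and H11, 23.6 CPM in C9 and 919 in F4. F4 held 33.8 CPM of *Pomc* but 1643 CPM of the LH subunit *Lhb*, 63.8 CPM of *Gnrhr*, 30.0 CPM of *Nr5a1*, a factor of gonadotrophs, and 189 CPM of *Neurod1*, and its *Scg5* was 4197 CPM. H11, with the lowest *Pomc* of any well (21.4 CPM), had *Scg5* at 4282 CPM, the highest after E3. The highest *Pcsk1* levels were thus found in wells almost free of *Pomc*.

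Against *Prl*-led wells the medians of *Gh*-led wells differed by 2.45 for *Pcsk1*, 2.23 for *Cpe*, 1.98 for *Pam*, 1.42 for *Pcsk1n*, 0.61 for *Scg5*, 0.15 for *Furin* and -1.32 for *Pcsk2* on the log2 scale. Of the 7 genes past the mean filter, 4 were higher by at least 1 and 1 lower, where 29.5% of all genes were higher and 15.7% lower. *Pcsk1* without F4 or without H11 differed by 0.02, and *Pcsk2* without B12 or without H11 by 0.99, so these values hung on single wells. *Pcsk1n* was above the *Prl*-led median in 4 of 4 wells, where 3.69% of all genes were, with values of 7.37 CPM in C9, 12.0 in H11, 21.9 in B12 and 112 in F4.

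Across the 46 wells *Pcsk2* followed *Pomc* most closely of the 8 genes. This was a weak relation that differed between parts of the plate and with the wells left out. Pearson's r of log2(CPM + 1) with *Pomc* was 0.44 for *Pcsk2* (Spearman's rho 0.52), 0.24 for *Furin*, 0.23 for *Pcsk1*, 0.18 for *Pcsk1n*, 0.16 for *Cpe*, 0.09 for *Scg5*, 0.00 for *Cpd* and -0.06 for *Pam*. These are descriptions over wells taken as 1 sample and have no p-value. The levels also share depth, with r of log10 gene counts at -0.29 with *Pomc*, 0.33 with *Cpe* (rho 0.46) and 0.38 with *Pam* (rho 0.45). The ERCC share of a well had rho of -0.48 with *Cpe*, -0.53 with *Pam* and -0.43 with *Scg5*, and the part of depth and spike-in share in the values that follow was not tested. Of the 7 members past the mean filter 1 reached 0.3, where 3.13% of 7958 genes did. *Pcsk2* had r of 0.27 without the 5 *Pomc*-led wells, 0.38 without E8 and 0.35 without the 2 wells farthest from the median of *Pomc*. Without the endothelial wells H4 and F6 (n = 44) it was 0.45 for *Pcsk2*, but fell to 0.10 for *Pcsk1*, -0.05 for *Cpe* and -0.08 for *Scg5*, and the median over the 8 genes was 0.05. Without the *Gh*-led wells (n = 42), a run chosen after seeing the data, r rose to 0.53 for *Pcsk2*, 0.51 for *Pcsk1* and 0.41 for *Cpe*. The median over the 8 genes was then 0.28, so *Pcsk1* and *Pcsk2* were nearly alike in these wells.

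Within columns 1 to 3 and 7 to 9 (n = 29), r with *Pomc* was 0.62 for *Pcsk1*, 0.60 for *Pcsk2* and 0.50 for *Pcsk1n*. Within columns 4 to 6 and 10 to 12 (n = 17) it was 0.07, 0.22 and 0.08. The second set had the deeper wells (median 3030870 gene counts, against 1050010), and the sets were split with a difference in depth known. The part of depth in the difference of r was not tested. Nor was that of the like counts at unlike depth in A2, A3, A7 and C1, all in the first set.

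**Figure D4:**
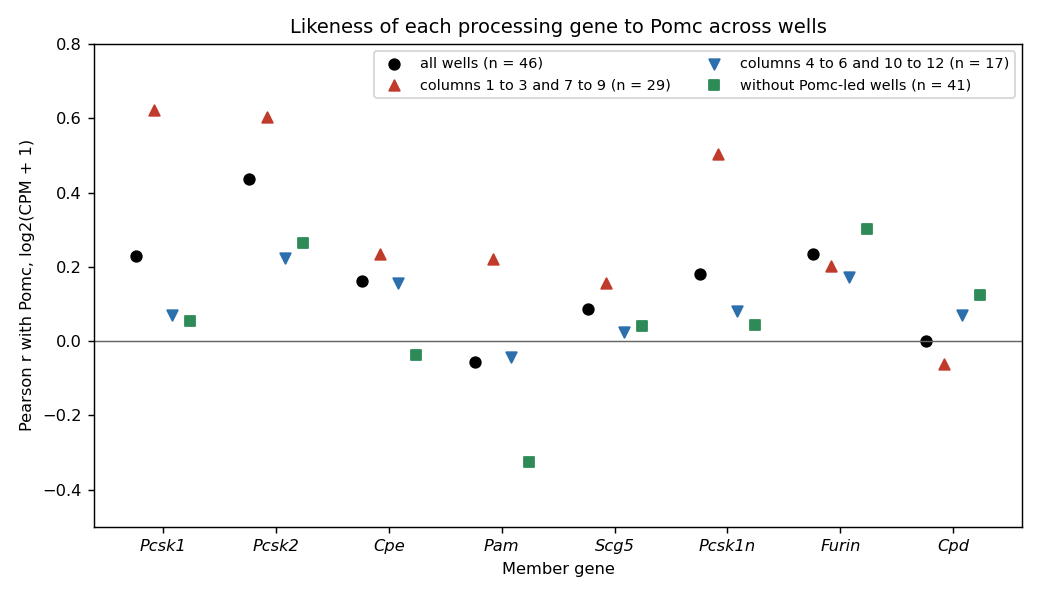
Pearson's r of each processing gene with *Pomc* across wells on log2(CPM + 1), for all 46 wells, for each set of plate columns and without the 5 *Pomc*-led wells. *Pcsk1*, *Pcsk2* and *Pcsk1n* reach 0.50 to 0.62 in columns 1 to 3 and 7 to 9 and stay at 0.22 or less in the other columns.

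Among themselves, 2 pairs of members stood highest. Of 36 pairs, 28 had r above 0 (77.8%), the median was 0.15, and 2 reached 0.5 (5.56%). Over all pairs of the 7959 genes past the mean filter, 67% had r above 0, the median was 0.09 and 1.79% reached 0.5, so the share above 0 is no result about the members. The 10 pairs among *Pcsk1*, *Cpe*, *Pam*, *Scg5* and *Pcsk1n*, 5 genes grouped after the values had been seen, ran from 0.30 to 0.71. *Cpe* and *Scg5*, both abundant granule proteins, had r of 0.71 (0.58 and 0.83 within the sets of columns, in the order above), and both also moved with the ERCC share as given above. *Pcsk1* and *Pcsk1n*, the convertase and the gene of its inhibitor, had r of 0.66 (0.62 and 0.70). The wells H4, C10 and C11 were included in both pairs, and their part in these r values was not tested. *Pcsk2* and *Scg5*, the convertase and the gene of its chaperone, had r of only 0.31 (0.25 and 0.39), and *Pcsk1* and *Pcsk2* 0.30 (0.55 and 0.21). *Furin*, whose product works outside granules, ran at -0.21 to 0.24 with the other members. E3, a *Prl*-led well, held the most *Cpe* (3175 CPM) and the most *Scg5* (5622 CPM). It also held the most of the gonadotroph markers *Lhb* (59401 CPM), *Cga* (57530 CPM), *Gnrhr* (3060 CPM) and *Fshb* (2464 CPM). *Pcsk1n* was highest in B11 (314 CPM) and C10 (310 CPM), where *Pcsk1* was 202 and 111 CPM, and the wells with the most *Pcsk1*, F4 and H11, held 112 and 12.0 CPM of *Pcsk1n*.

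**Figure D5:**
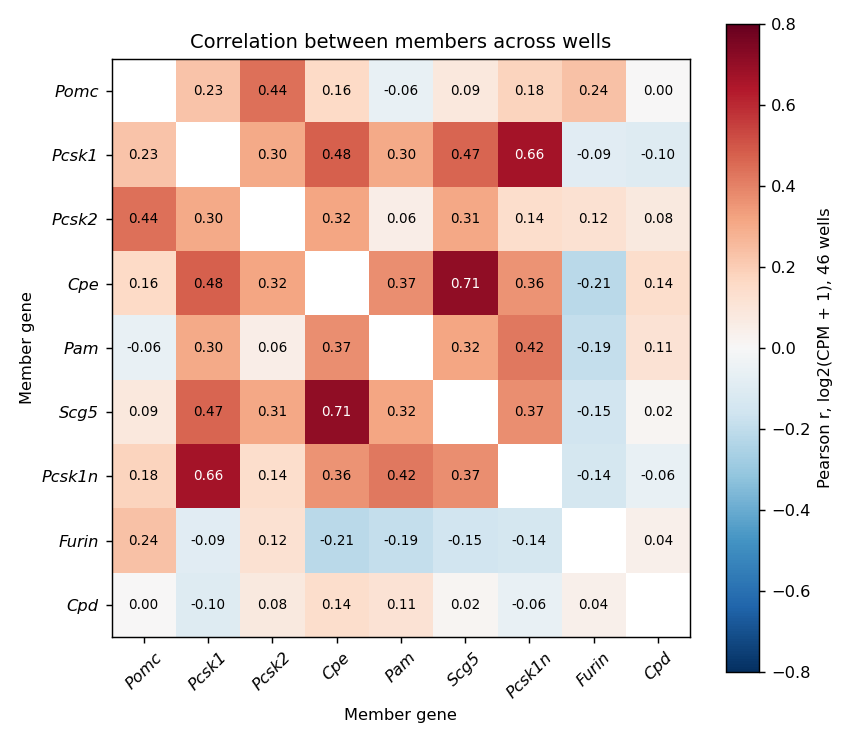
Pearson's r of log2(CPM + 1) across 46 wells for each of the 36 pairs of members. *Cpe* with *Scg5* (0.71) and *Pcsk1* with *Pcsk1n* (0.66) are the strongest, and *Furin* stays between -0.21 and 0.24.

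Genes most like each main member were ranked by r over the 46 wells among 7060 genes at 1 CPM or more in at least 10 wells. Most like *Pomc* were *Nudt14* (0.64), *Ift172* (0.61), *Creb3l2* (0.61), a factor of the secretory stress response, *Etv1* (0.59), *Cdk10* (0.59), *Fam193a* (0.58), *Clk4* (0.55) and *Dcakd* (0.55), and *Pcsk2* ranked 41. Several of these were near the floor, with medians over wells of 0 CPM for *Fam193a* and *Dcakd* and 2.78 for *Etv1*. The medians were 6.09 CPM for *Cdk10*, 6.44 for *Ift172*, 10.2 for *Clk4*, 23.1 for *Nudt14* and 32.2 for *Creb3l2*. Most like *Pcsk1* were *Syne4* (0.71), *Fam183b* (0.67), *Tmem130* (0.66), *Pcsk1n* (0.66) and *Id1* (0.65). Among those most like *Pcsk2* were *Mdp1* (0.64), *1110065P20Rik* (0.63), *Nrcam* (0.62) and *Eya1* (0.61). The inhibitor gene *Pcsk1n* was the only member among the genes ranked this high for *Pomc*, *Pcsk1* or *Pcsk2*. No such ranking was made for the other members, of which *Cpe* and *Scg5* had r of 0.71 with each other.

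Other genes of the pathway were followed as 5 lists, by medians of log2(CPM + 1) in *Pomc*-led minus *Prl*-led wells. Of all genes, 32.4% were higher and 17.7% lower by at least 1, and with 1 to 5 genes of a list past the mean filter, counts near these shares are no result about a list. Of the granule sorting partners 4 of 5 were higher by at least 1 and 0 lower. Chromogranin A (*Chga*) differed by 3.10, *Scg2* by 2.80, *Vgf* by 2.08 and *Scg3* by 1.21, while *Chgb* differed by -0.78. *Scg2* was 2775 to 10478 CPM in the 5 *Pomc*-led wells, against a *Prl*-led median of 632. The others spread more widely over these wells, with 74.6 to 2124 CPM for *Chga* and 27.7 to 2175 for *Chgb*. *Vgf* ran from 0 to 91.2 CPM (SD of log2 2.83) and *Scg3* from 0 to 667 (SD 3.74), spreads larger than their differences. Of other proprotein convertases 2 of 6 passed the mean filter, and *Pcsk6* was lower by 2.63 (at most 0.755 CPM in *Pomc*-led wells) while *Mbtps1* differed by -0.17. Of other carboxypeptidases 1 of 6 passed, *Aebp1*, with 0.54. Of other proteases and modifying enzymes 5 of 9 passed, 1 higher and 1 lower: the lysosomal protease *Ctsb* differed by 1.82 and the glutaminyl cyclase *Qpct* by -1.68. Of 12 other peptide precursors 4 passed, with *Nmb* (2.85) and *Nucb2* (2.77) higher and 0 lower, while galanin (*Gal*) differed by -0.92. *Pomc*-led wells ran from 0 to 161 CPM for *Nmb* (SD 3.40), 0 to 250 for *Nucb2* (SD 3.45) and 3.04 to 5040 for *Gal* (SD 4.48). These spreads were larger than the differences. In *Gh*-led minus *Prl*-led wells the higher and lower counts were 3 and 0 of the 5 granule partners, 1 and 1 of 2 convertases, 0 and 0 of 1 carboxypeptidase, 2 and 1 of 5 proteases and 2 and 2 of 4 precursors, beside 29.5% and 15.7% of all genes.

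The promoters of *Pomc* and both convertases are shown because the levels of these 3 genes are what was compared above. Each is the 250 bases before the RefSeq start on GRCm38.p6, in the direction of the gene, at chr12:3954695-3954944, chr13:75089607-75089856 and chr2:143545883-143546132, all on the plus strand. Capitals mark motifs matched on either strand. The TATA box, found near many start sites, was searched as TATAAA. The CRE half-site, part of the element that answers to cyclic AMP, was searched with the letters TGACG. The GC box, which Sp factors bind, was searched with the letters GGGCGG.

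Pomc: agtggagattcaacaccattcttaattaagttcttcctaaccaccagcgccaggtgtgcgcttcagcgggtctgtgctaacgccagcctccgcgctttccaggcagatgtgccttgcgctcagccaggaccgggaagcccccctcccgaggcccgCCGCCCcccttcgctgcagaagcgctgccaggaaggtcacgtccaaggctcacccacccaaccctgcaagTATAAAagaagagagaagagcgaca
Pcsk1: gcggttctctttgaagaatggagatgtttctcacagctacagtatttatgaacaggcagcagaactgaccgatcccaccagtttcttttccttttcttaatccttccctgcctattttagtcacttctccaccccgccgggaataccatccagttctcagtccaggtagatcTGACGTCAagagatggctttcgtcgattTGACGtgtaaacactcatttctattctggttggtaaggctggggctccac
Pcsk2: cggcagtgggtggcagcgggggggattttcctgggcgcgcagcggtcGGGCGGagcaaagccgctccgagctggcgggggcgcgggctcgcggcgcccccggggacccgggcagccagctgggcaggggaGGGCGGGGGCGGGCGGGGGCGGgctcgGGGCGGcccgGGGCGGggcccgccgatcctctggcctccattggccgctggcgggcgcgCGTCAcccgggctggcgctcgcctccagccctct

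*Pomc* had 1 TATA match and 1 GC box match, as found in 12.4% and 32.7% of 32851 promoter windows. *Pcsk1* had 3 CRE half-site matches, which are found in 17.8% of windows, and 2 of them are the strands of 1 full palindrome TGACGTCA, which 1.55% of windows hold. *Pcsk2* had 7 GC box matches, some of them overlapping, and 1 CRE half-site, and its GC content was 82.4%, against 60.0% for *Pomc*, 46.8% for *Pcsk1* and a median of 52.4%. These are matches of letters in a window, and no binding was measured.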

How the data were processed

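Estimated counts of reads per gene were deposited by the authors as 1 table, made with featureCounts 1.5.0-p1 after alignment with STAR 2.5.1b to mm10, tools and build that the submitters' processing notes name, with 56 wells as columns. The methods name GENCODE release M8 for bulk RNA-seq; for the SC libraries the annotation release, and the strand setting, are not given in the sources used here. The counts are of reads, not molecules, and 33.5% of values above 0 were not whole (tolerance 1e-09). Symbols for 46488 of 47069 gene identifiers, positions and exon lengths came from GENCODE M21. CPM was computed from gene rows without the 92 ERCC spike-ins, over wells with at least 100000 gene counts, and logs are log2(CPM + 1). No test was run, because the wells are 1 sample. Groups were compared by medians, with 1 (log2) as the difference counted, beside the share of all genes with a mean of 10 CPM or more that passed it. Thinning rounded the fractional counts first. Doublets were not called. Named are the 9 members, *Prl*, *Gh*, the genes of the pathway and marker lists, the 8 genes most like *Pomc* and the 5 most like each of *Pcsk1* and *Pcsk2*, of which 1 is not reported here; wells and overlapping genes were named after their values were seen. The members and lists were chosen with earlier results of these data known. Python 3.11.15 with numpy 2.4.6, pandas 2.3.3, scipy 1.17.1 and matplotlib 3.10.9 was used, and the code was tested on simulated data.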

Additional observations from a re-analysis of the deposited data

Results flagged for a closer look

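*Cpe* in well E8 was 276 CPM, while the other *Pomc*-led wells held 1420 to 2045 CPM, and the gap set E8 apart from the group of 5. Of 16 gene and group combinations examined in this way it was the only one so marked, and chance marks about 1 in 20. E8 also held the lowest *Scg5* (380 CPM), *Pcsk1n* (19.8 CPM) and *Pcsk1* (51.7 CPM) of the group and the highest *Pcsk2* (1568 CPM).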

How the results depend on the processing

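The 5 genes higher in *Pomc*-led wells kept their direction under every alternative run, and their number was 4 to 5. The number lower by at least 1, which was 0, became 1 with means and 2 with summed counts (*Furin* at -1.39 and *Cpd* at -4.39). *Gh*-led results were less stable. Counting *Cpd*, 5 genes were higher. This became 1 in columns 1 to 3 and 7 to 9, and 3 after thinning, without hormone genes or with a pseudocount of 10 CPM. The number lower, 1, became 0 with that pseudocount or with means and ran from 0 to 2 as each well was left out. *Pcsk2* there was -1.32 but 0.81 in columns 1 to 3 and 7 to 9, 0.071 with means, 1.81 with summed counts and from -3.63 to 0.99 as each well was left out. In the same columns *Cpe* was -0.54. *Pcsk1n* was -0.049 in the other columns and -0.25 with summed counts, which gave -0.99 for *Cpd*. By counts per kb 7 wells were *Gh*-led, not 4. *Pcsk1* exceeded *Pcsk2* in 80% of wells with exon length and in 62.5% with counts alone or with transcript length, an alternative chosen after seeing the data, as were the depth-matched *Prl*-led wells and the correlation without *Gh*-led wells. The number of members detected in at least 90% of wells, 5, was 3 after thinning or at 10 CPM. Without hormone genes, other proteases higher went from 1 to 2, and granule partners and peptide precursors lower from 0 to 1. Except for lengths and fewer wells, the cause was not tested. Low counts of *Furin*, *Cpd* and *Pcsk1n* limit their values in shallow wells. No paired analysis was possible because the wells are 1 group.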
